A study of Saccharomyces cerevisiae with 8 samples.

Results

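Interior nuclear peaks are the peaks of Gcr1 that lie neither near a chromosome end nor at a tRNA gene. A peak was kept when it was on a nuclear chromosome, its centre was more than 30 kb from both ends and its interval was more than 500 bp from every annotated tRNA gene. The rule kept 77 of 299 peaks of Gcr1(U), 25.8%, and 67 of 233 peaks of Gcr1(S), 28.8%, at either time. It names positions only and no signal value. Together they make 105 distinct sites, 39 of them found with both forms, 38 with Gcr1(U) alone and 28 with Gcr1(S) alone.

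The study is a ChIP-seq experiment (chromatin immunoprecipitation followed by sequencing) on Gcr1 of the budding yeast Saccharomyces cerevisiae, with 8 samples in 4 groups of 2 replicates. The groups are JHY9311, GCR1U-TAP::his3MX6 GCR2-5Flag::hphMX6, at 6 h and 12 h, and JHY9321, GCR1S-TAP::his3MX6 GCR2-5Flag::hphMX6, at the same times. Gcr1(U) comes from the unspliced GCR1 transcript and Gcr1(S) from the spliced one. Both strains derive from the laboratory strain BY4741, and in both Gcr1 carries a TAP tag (the handle for recovery on IgG-sepharose) and its partner Gcr2 a 5Flag tag. All cultures started at an OD600 of 0.5 in YPD with 2% glucose at 30 °C, where 6 h is labelled as exponential growth and 12 h as after the diauxic shift. No input or untagged control was analysed here, which leaves the tag-independent signal at each site unmeasured.

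Gcr1 is the activator of the glycolytic genes of yeast. It works at promoters with Rap1, a factor that also binds ribosomal protein promoters, and with Gcr2, its co-activator. In rich glucose medium these promoters are among the most active of the cell, and at the diauxic shift the cell turns from fermenting glucose to respiring ethanol. A promoter in yeast is short and usually lies a short way upstream of the start codon.

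The data are 1 pooled peak list per form and time. The value of a peak is its normalized tag count, the sequence tags in the peak window scaled to library size by the authors. No value exists per replicate, so there is no SD and no test between conditions. Ratios carry an exact binomial 95% interval that covers counting error only, and a ratio is called higher or lower below only where that interval lies clear of 1. For Gcr1(U), 1 unit stood for 1.5 tags in the earlier list and 1.42 in the later, and for Gcr1(S) for 1.07 and 0.582, so the later Gcr1(S) list was the shallowest. The lowest listed peak had 69.6 and 69.8 units in Gcr1(U) and 107.5 and 169.3 units in Gcr1(S), in the same order of times. The usual window was 182, 168, 170 and 114 bp in the same order of lists, which touches every comparison of tags. Coordinates are those of the deposited lists, on sacCer3, and gene positions follow RefSeq's annotation of assembly R64.

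The interior peaks were a mix of positions inside genes and between genes, and the mix differed between the forms. With Gcr1(U) at 6 h, 41 of 77 centres lay inside a protein-coding gene, 53.2%, and 36 between genes. With Gcr1(S) at 6 h, 26 of 67 centres were inside a gene, 38.8%, and 41 between genes. At 12 h the split was 40 and 37 for Gcr1(U), and 24 and 43 for Gcr1(S). Of the interior bases that pass the same rule, 76.1% lie inside genes and 23.9% between them, so both forms had a larger share between genes than the bases do. The 12 h lists add little here, because within a form they match the 6 h lists peak by peak. The centre crossed a gene boundary between the times at 3 sites, at YLR162W for Gcr1(U), and at RTR1 and SHE10 for Gcr1(S).

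Peaks between genes had a higher median of tags than peaks inside them in every list. In Gcr1(U) at 6 h the median was 428.1 normalized tags between genes and 181.2 inside. At 12 h these medians were 365.4 and 175.5. In Gcr1(S) they were 468.8 and 355.9 at 6 h, and 661.6 and 439.9 at 12 h. The peak with the most tags was nevertheless inside a gene in every list, in EFM4. By fold over local background the order of the medians was reversed in Gcr1(U). There they were 2.735 between genes and 2.97 inside at 6 h, and 2.63 and 3.065 at 12 h. Gcr1(S) kept the order, with 2.85 and 2.62 at 6 h, and 4.8 and 3.835 at 12 h. Among the sites found with both forms, the median tags were higher between genes in Gcr1(U) at both times and in Gcr1(S) at 6 h. In Gcr1(S) at 12 h these sites had the other order, with 706.3 tags between genes and 788.4 inside. The deposited p-value against local background was at most 1.36e-20 in Gcr1(U) at 6 h and 9.89e-15 in Gcr1(S) at 12 h over the interior peaks. Their median focus ratio, HOMER's share of tags on the proper side of the centre for their strand, was 0.677 and 0.659 for Gcr1(U), and 0.656 and 0.711 for Gcr1(S), earlier time first. The peaks near tRNA genes had medians of 0.646, 0.681, 0.678 and 0.662, a difference of no constant sign.

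**Figure D1:**
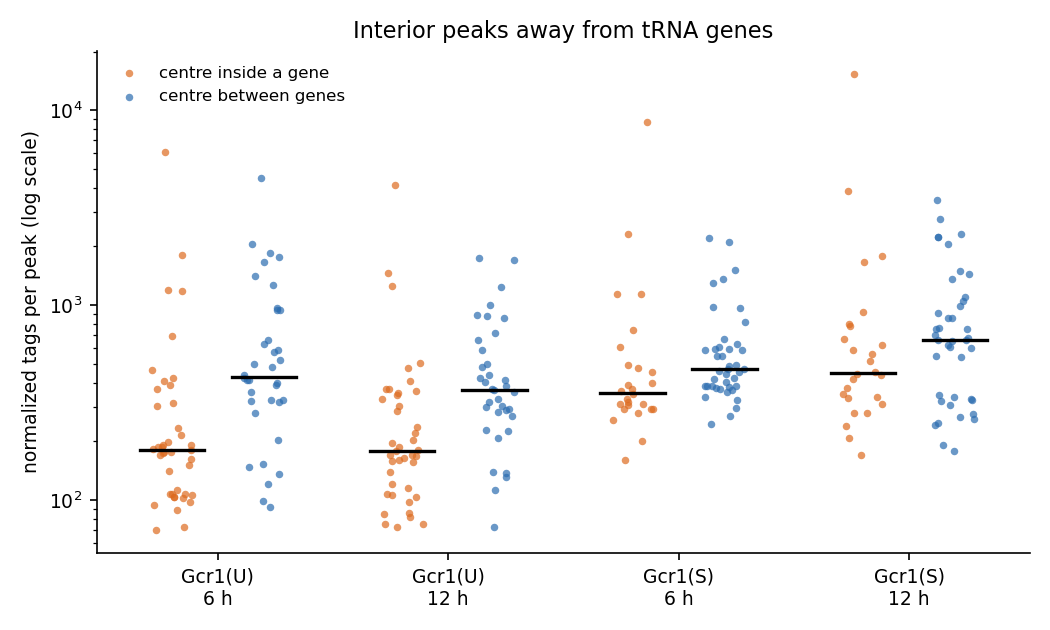
Each point is an interior peak away from tRNA genes, with its normalized tag count on a log axis, in the 4 pooled lists. Orange points have their centre inside a gene at 6 h, blue points between genes, and black bars are medians. The clouds overlap in every list, the bars for peaks between genes are the higher ones, and the top point of every list is the site in EFM4.

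Most peaks between genes had a start codon downstream, as most bases between genes do. Of the 36 in Gcr1(U) at 6 h, 34 had a start codon within 1000 bp downstream of the centre, and of the 41 in Gcr1(S), 36 did. Of all interior bases between genes, 78.2% have one. The median distance from the centre to the nearest such start was 315.5 bp in Gcr1(U), with quartiles of 182 and 434.5 bp, and 336 bp in Gcr1(S), with quartiles of 193.2 and 441 bp. A distance over 200 and up to 500 bp was found for 16 of 34 and for 18 of 36. The share of bases at that distance was not counted, so these counts are no result about position. By orientation of the flanking genes, 12 of the Gcr1(U) peaks were in a gap between divergent genes, 23 between genes in tandem and 1 between convergent genes. The numbers for Gcr1(S) were 12, 24 and 5. Of the interior bases between genes, 33.1% lie in divergent gaps, 50.9% in tandem ones and 16.1% in convergent ones, so convergent gaps, which hold no start, had few peaks of Gcr1(U).

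**Figure D2:**
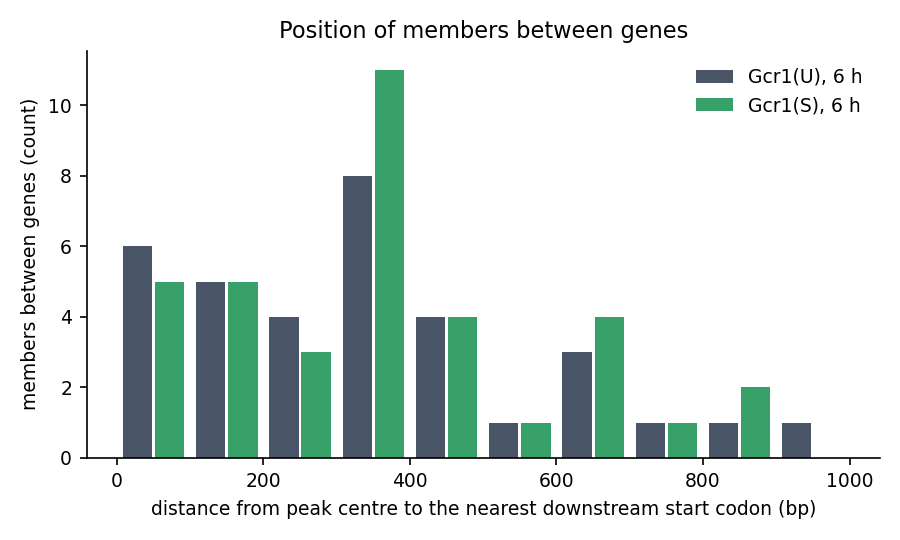
The bars count peaks between genes at 6 h, in bins of the distance in bp from the peak centre to the nearest downstream start codon, for both forms. Distances over 200 and up to 500 bp hold 16 of the 34 Gcr1(U) peaks and 18 of the 36 Gcr1(S) peaks with a start in the window. The share of bases at these distances was not counted.

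A centre inside a gene did not always mean a peak away from promoters. In Gcr1(U) at 6 h, 19 of the 41 peaks inside a gene also lay within 1000 bp upstream of another gene's start, and in Gcr1(S) 16 of 26 did. Of the interior bases inside genes, 28.5% have such a start. Along the gene that held them, 6 of 41 centres of Gcr1(U) were in the leading 10% of its length, 27 in the middle and 8 in the last 10%. For Gcr1(S) these were 4, 18 and 4 of 26.

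The sites that both forms shared lay mostly between genes, and those of Gcr1(U) alone mostly inside them. The 39 shared sites are 50.6% of the Gcr1(U) members and 58.2% of the Gcr1(S) members, beside 54.2% and 69.5% over all peaks at 6 h. Their centres were close together, with a median offset of 8 bp at 6 h and a greatest offset of 51 bp, inside SSA1. Of the shared sites 26 were between genes and 13 inside a gene. Of the 38 sites of Gcr1(U) alone 28 were inside a gene, 73.7%, and of the 28 sites of Gcr1(S) alone 13 were, 46.4%. The share of Gcr1(U) alone is near the 76.1% of interior bases inside genes, so it is no result about that class, and the shared sites, at 33.3%, are below that background. Among the sites inside a gene, 9 of the 13 shared ones lay upstream of another start, 10 of the 28 of Gcr1(U) alone and 7 of the 13 of Gcr1(S) alone.

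The lists differed in depth, and its part in which sites appear with 1 form was not tested. The sites of Gcr1(U) alone had a median of 148.9 normalized tags at 6 h, against 498.2 in Gcr1(U) for the shared sites. At 6 h, 13 of these 38 were below the lowest value listed for Gcr1(S), and at 12 h 23 were. That lowest value is the smallest observed and need not be the limit of the peak caller. None of the sites of Gcr1(S) alone was below the lowest value listed for Gcr1(U), and their median was 373.6 at 6 h and 439.9 at 12 h. A site missing from a list has no value there, so it cannot be called unbound.

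**Figure D3:**
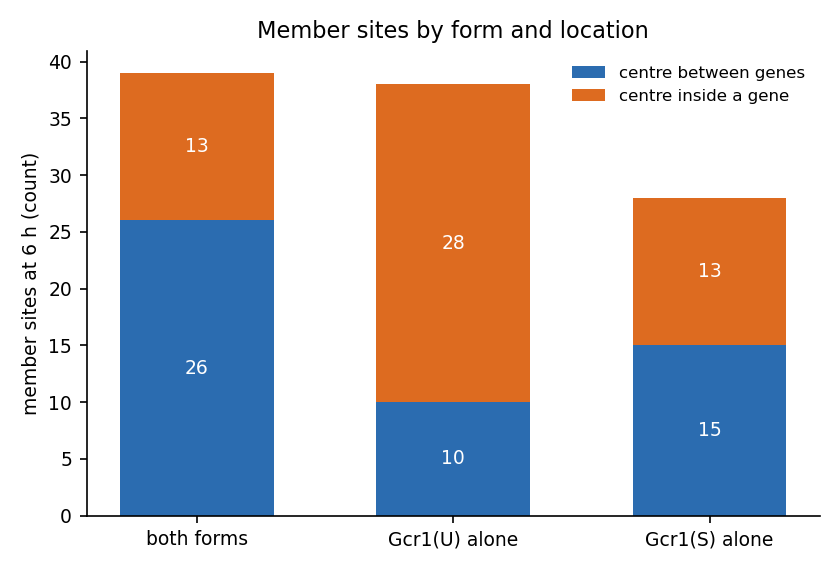
The bars count interior sites away from tRNA genes at 6 h by the form that had them, split into centres between genes and inside a gene. Gcr1(U) alone had 28 of 38 centres inside a gene, the shared sites 13 of 39.

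The highest interior site was not at a glycolytic gene. It was inside EFM4, which encodes a protein lysine methyltransferase, at chrIX:242110-242292 in Gcr1(U) at 6 h, 25.4% of the way along the gene and 426 bp upstream of FIS1, a gene of mitochondrial fission. The EFM4 site had 6109.5 and 4157.7 normalized tags with Gcr1(U), and 8687.1 and 15418.8 with Gcr1(S), at 6 h and 12 h. Gcr1(S) was the higher form at both times, 1.42-fold (1.38 to 1.46) at 6 h and 3.71-fold (3.59 to 3.83) at 12 h. The fold over local background went the other way with time in Gcr1(S), from 45.3 to 16.3, while it was 7.98 and 8.68 in Gcr1(U).

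RAD34, a gene of nucleotide excision repair, held the next highest site inside a gene, at chrIV:1092090-1092272 and 15.9% of the way along it. Its tags were 1800.6 and 1460.9 in Gcr1(U) and 2312.3 and 3859.6 in Gcr1(S), at 6 h and 12 h. No start lies within 1000 bp downstream of its centre, and the same holds for the shared sites in GIC2, FLO5 and SNF1. GIC2, which encodes an effector of the GTPase Cdc42, had 465.9 and 360.8 tags in Gcr1(U), and 607.5 and 921.9 in Gcr1(S). SNF1, the yeast AMP-activated kinase needed for growth without glucose, had 315.7 and 287.8 in Gcr1(U), and 361.7 and 561.9 in Gcr1(S), with the centre 2.79% of the way along the gene. All 3 of RAD34, GIC2 and SNF1 had the fewest tags in Gcr1(U) at 12 h and the most in Gcr1(S) at 12 h, but by fold over local background RAD34 changed the other way with time in both forms.

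Other shared sites inside a gene faced a neighbour's start. ATS1 held a site 658 bp upstream of CCR4, the catalytic deadenylase of mRNA, with 692.3 and 501.9 tags in Gcr1(U) and 1136.8 and 1788.0 in Gcr1(S). The site in ADK2, a mitochondrial adenylate kinase gene, was 634 bp upstream of RAD3, a helicase of the general factor TFIIH, and had 371.3 and 330.8 tags in Gcr1(U), and 473.9 and 798.2 in Gcr1(S). The site in the reading frame YHR173C was 464 bp upstream of ENO2, the enolase gene, and is counted with glycolysis below. MIY3 departed from the others: its site, 544 bp upstream of YGL081W, had 1196.9 and 1248.9 tags in Gcr1(U) and fell with Gcr1(S) from 1147.0 to 778.5, by a ratio of 0.679 (0.608 to 0.756) that turned above 1 after centring and per bp. The site in YEL008W, 902 bp upstream of GCN4, the activator of amino acid synthesis genes, had 409.9 and 370.3 tags in Gcr1(U) and 389.2 and 334.2 in Gcr1(S), with no ratio clear of 1.

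Among peaks between genes the highest were at ADH1 and CIS1. ADH1, the main alcohol dehydrogenase of fermentation, had its peak at chrXV:161195-161377, 692 bp upstream of the start. Its tags went from 4497.4 to 1705.7 with Gcr1(U) and from 2099.0 to 2750.4 with Gcr1(S). CIS1 had its peak at chrXII:823375-823557, 874 bp upstream of the start, with 2051.4 and 1755.1 tags in Gcr1(U), and 2203.3 and 3460.1 in Gcr1(S). Gcr1(U) at 6 h was the highest of the 4 lists at ADH1, and Gcr1(S) at 12 h at CIS1.

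Interior glycolytic promoters were bound by both forms in 8 of 17 genes of the glycolysis list, namely CDC19, ENO2, FBA1, GPM1, PFK2, PGI1, PGK1 and TDH3, and TPI1 had a peak with Gcr1(S) alone. At 12 h all 8 were higher with Gcr1(S) than with Gcr1(U), as were 27 of the 39 shared interior sites and 31.9% of all shared peaks. Over the 8 the median log2 ratio was 1.5, with a range of 0.87 to 1.81. At 6 h 7 of the 8 had a ratio below 1, and the median log2 ratio was −0.50. The interval was below 1 at 6 of the 8, beside 13 of the 39 interior sites and 25.3% of all shared peaks. FBA1, the aldolase gene, shows the turn: its tags went from 1417.3 to 483.9 with Gcr1(U) and from 672.7 to 1436.6 with Gcr1(S). CDC19, the pyruvate kinase gene, had 1760.0 and 1233.4 tags in Gcr1(U), and 1516.7 and 2246.9 in Gcr1(S). In Gcr1(U) a further site lay inside ENO2, 20.1% of the way along it, and rose from 175.2 to 346.4 tags, against a fall from 1178.5 to 477.9 at the site upstream of the same gene.

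Glycerol synthesis had interior peaks at 3 of 4 genes with both forms, and they did not move together. GPD1, the glycerol-3-phosphate dehydrogenase of osmotic stress, had 578.1 and 369.6 tags in Gcr1(U), and 383.6 and 545.6 in Gcr1(S). Its paralog GPD2, which shares a divergent promoter with MAM3, had the opposite order: 661.7 and 1006.3 in Gcr1(U), and 969.7 and 609.2 in Gcr1(S), where the lower value at 12 h turned higher after centring. GPP1, the phosphatase of the next step, lies downstream of a peak that is closer to YIL054W and YIL055C and had the same direction as the one at GPD1, with 970.7 and 658.9 tags in Gcr1(U), and 821.2 and 1050.8 in Gcr1(S).

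Cytosolic ribosomal protein genes had interior peaks at 7 of 137 genes in Gcr1(U) and 6 of 137 in Gcr1(S), and 4 genes were shared, RPL1B, RPL42B, RPS19B and RPS24A. RPS24A had 390.3 and 404.6 tags in Gcr1(U), and 455.7 and 305.9 in Gcr1(S). All 6 peaks of Gcr1(S) had a lower tag count at the later time, 4 of them with an interval below 1, near the 58.8% of all 233 Gcr1(S) peaks, and their median log2 ratio was −0.48. That direction rests on the scale: after centring on the median of all peaks the median became 0.27, per bp of window 0.10, and by fold over local background 0.12. The pair RPL2A and RPL2B split between the forms, since RPL2A had a peak with Gcr1(U) alone and RPL2B with Gcr1(S) alone.

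GCR1 itself had a peak with both forms, 181 bp upstream of its start, with 420.3 and 301.6 tags in Gcr1(U), and 420.4 and 622.1 in Gcr1(S). It was the only gene with an interior peak among the 10 genes of the list of Gcr1 partners and promoter factors. The respiration list of 24 genes had SDH1, a subunit of succinate dehydrogenase, with both forms and SOD2, the mitochondrial superoxide dismutase gene, with Gcr1(S) alone. The 19 hexose transporter genes had no interior peak away from tRNA genes, nor did the 11 genes of the membrane and cell wall list. The 5 genes beside the sites bound by TFIIIC without polymerase III (ETC) had none either.

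The shared sites between genes outside these lists differed among themselves. FIG1, a membrane gene of the mating response, had 498.2 and 328.4 tags in Gcr1(U), and 547.0 and 1106.7 in Gcr1(S). LCB2, a subunit of serine palmitoyltransferase, had 413.6 and 317.1, and 549.3 and 856.6. AAH1, the adenine deaminase gene, had 326.0 and 230.0, and 370.1 and 661.6. RCF2, which encodes an assembly factor of cytochrome c oxidase, had 523.2 and 422.9, and 634.0 and 855.8. At these 4 genes Gcr1(S) at 12 h was the highest of the lists and Gcr1(U) at 12 h the lowest. GAT1/FRS2 did not share this order, with 323.7 and 282.9 tags in Gcr1(U), and 326.3 and 247.5 in Gcr1(S). PMD1 and the gap of TIM9 and PXP1, described below, were highest in Gcr1(S) at 6 h and lowest in Gcr1(S) at 12 h. YHR054C, also below, had no change with time clear of 1.

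At 6 h the shared interior sites had about the same tags with both forms. The median log2 ratio of Gcr1(S) to Gcr1(U) was 0.01, with quartiles of −0.30 and 0.25, and 13 ratios were above 1, 13 below and 13 spanned it, where 60.5% of all 162 shared peaks were above and 25.3% below. None was past 2-fold higher, where 0.0% of all were, and 2 were past 2-fold lower, ADH1 and FBA1, where 3.7% of all were. Centring on the median of all peaks changed the split of ratios above and below 1 from 21 and 18 to 7 and 32, and put 4 sites past 2-fold lower, beside 14.2% of all. ADH1 had a ratio of 0.467 (0.445 to 0.489) and FBA1 of 0.475 (0.436 to 0.517). The other nuclear peaks had a median of 0.46. The highest ratios were at PMD1, 1.67 (1.49 to 1.88), and ATS1, 1.64 (1.51 to 1.79).

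At 12 h the interior sites were higher with Gcr1(S) while the other nuclear peaks, most of them near tRNA genes, were lower with it. The median log2 ratio over the 39 sites was 0.95, with quartiles of 0.05 and 1.42, beside −0.84 for the 99 other nuclear peaks. Of these 99, 85 had an interval below 1 and 14 spanned it. The 81 near tRNA genes were all below 1, so the 14 were all away from tRNA genes. Past 2-fold higher were 17 of the 39 sites, where 19.6% of all 163 shared peaks were, and none of the other nuclear peaks. The 124 other peaks with the mitochondrial ones included held 15 past 2-fold higher and 25 with an interval above 1. None of these was nuclear, so the mitochondrial peaks shared the direction of the interior sites. Past 2-fold lower was 1 site, PMD1, where 11.7% of all peaks were. The interval lay above 1 at 27 sites and below it at 7, beside 31.9% and 56.4% of all peaks. After centring, 26 sites were past 2-fold higher, beside 31.3% of all, and none past 2-fold lower, and the split of ratios above and below 1 went from 29 and 10 to 34 and 4. Sites inside genes and between them had medians of 0.97 and 0.91. The site in ATS1 had a ratio of 3.56 (3.23 to 3.92), the site upstream of ENO2 3.50 (3.17 to 3.86), FIG1 3.37 (2.98 to 3.8) and TDH3 3.30 (2.96 to 3.68). The lowest ratios were at PMD1, 0.488 (0.404 to 0.585), and at the gap between TIM9 and PXP1, 0.554 (0.469 to 0.648).

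**Figure D4:**
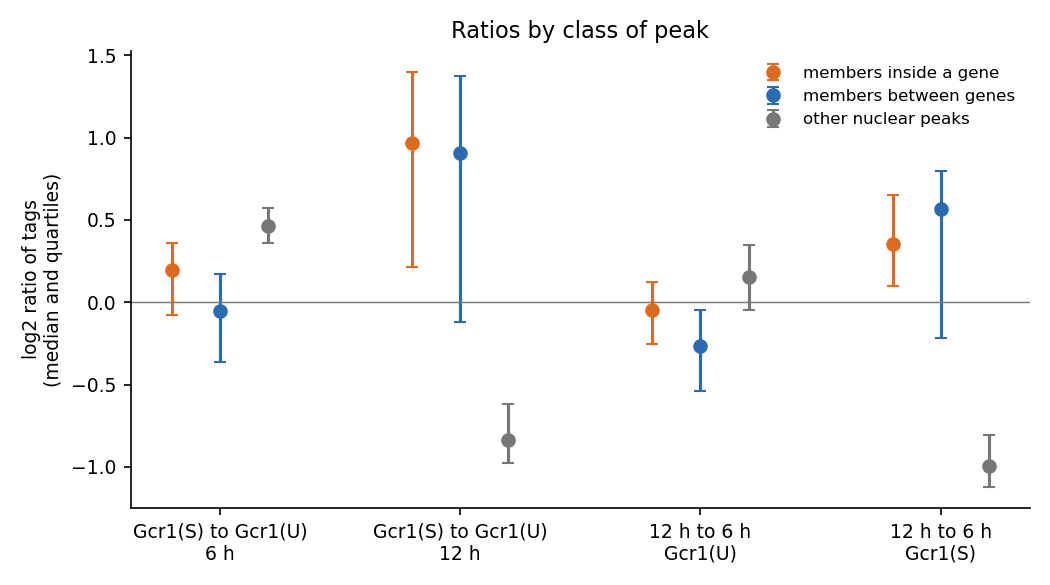
Points are medians of the log2 ratio of normalized tags and bars its quartiles over peaks, in 4 comparisons, for interior members inside a gene, members between genes, and the other nuclear peaks. At 12 h the members have medians of 0.97 and 0.91 for Gcr1(S) to Gcr1(U), and the other nuclear peaks, mostly near tRNA genes, −0.84.

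From 6 h to 12 h the interior peaks of Gcr1(U) fell slightly as a class. Over 77 members the median log2 ratio was −0.14, with quartiles of −0.46 and 0.11, and 10 ratios were above 1, 28 below and 39 spanned it, where 33.1% of all 299 peaks were above and 21.7% below. Past 2-fold lower were 5, namely FBA1, ADH1, PFK2, the site upstream of ENO2 and TDH3, where 9.03% of all peaks were, or 9.36% after centring. Of the 222 other peaks 22 were past 2-fold lower, and none of these was nuclear. None of the members was past 2-fold higher, where 0.0% of all peaks were. FBA1 had the lowest ratio, 0.341 (0.313 to 0.372), then ADH1 with 0.379 (0.362 to 0.397) and PFK2 with 0.387 (0.360 to 0.416). By fold over local background the class median was 0.02, so its direction was not kept on that scale. Ratios above and below 1 numbered 27 and 50 as deposited, 36 and 41 per bp and 40 and 36 by fold over local background.

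Lower tags in Gcr1(U) at 12 h were found mainly at the shared sites. Their median log2 ratio was −0.38 with 25 of 39 below 1, and the sites of Gcr1(U) alone had 0.06 with 3 of 38 below 1. Within the shared sites, those between genes had a median of −0.51 and those inside genes −0.17. Among the sites of Gcr1(U) alone, 7 had more tags at 12 h with an interval above 1, and 5 of these were inside RPL8A, ENO2, SSB1 and SSB2. RPL8A, a ribosomal protein gene, rose from 186.2 to 371.0 tags, a ratio of 1.99 (1.72 to 2.31).

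In Gcr1(S) the interior peaks went up from 6 h to 12 h while the rest of the nuclear peaks, most of them near tRNA genes, went down. Over 67 members the median log2 ratio was 0.48, with quartiles of 0.07 and 0.74, beside −1.0 for the other nuclear peaks. Of the members 43 had a ratio above 1, 12 below and 12 spanned it, where 27.9% of all 233 peaks were above and 58.8% below. The interval was above 1 at 1 of the 140 other nuclear peaks, below 1 at 125 and spanned it at 14. Of the 140, 118 were near tRNA genes, with 117 below 1 and 1 spanning it, so most of those that spanned 1 were away from tRNA genes. With the mitochondrial peaks included, the interval was above 1 at 22 of the 166 other peaks, so the rise was not particular to interior peaks. Past 2-fold higher were 6, BMH1, PFK2, TDH3, the site upstream of ENO2, FBA1 and FIG1, and these are all of the peaks of Gcr1(S) that were, 2.58%. After centring 43 members were, beside 28.3% of all peaks, and the split of ratios above and below 1 went from 51 and 16 to 63 and 4. Past 2-fold lower were 3 members, at PMD1, at the gap of REX3 and YLR108C, and at the gap of HIP1 and TDH3, where 30.9% of all peaks were. The rise was seen at shared sites and at sites of Gcr1(S) alone, with medians of 0.57 and 0.38. The tags of Gcr1(S) at 12 h come from the narrowest window and the shallowest list, whose part in this was not tested.

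At most of the 39 shared sites the forms changed with time in opposite directions. At 22 of them Gcr1(U) was lower and Gcr1(S) higher at 12 h, both intervals clear of 1, where 41 of all 162 shared peaks did so. The reverse held at 3 of them, beside 73 of all 162. At 13 sites an interval spanned 1. GAT1/FRS2 was the only site lower in both forms by interval, and no site was higher in both; its direction turned by fold over local background in Gcr1(U), and after centring and per bp in Gcr1(S). The 22 sites were 17 between genes and 5 inside one, and held all 8 glycolytic promoters, ADH1, GCR1, GPD1, GPP1, SDH1, CIS1, EFM4, RAD34, ATS1, GIC2, FIG1, LCB2, AAH1 and RCF2. By fold over local background the direction turned in both forms at EFM4 and RAD34, in Gcr1(U) at CIS1 and in Gcr1(S) at GPP1. The 3 reverse sites were the MAM3/GPD2 promoter and the sites at RPR1 and SNR52. In Gcr1(S) the direction turned at MAM3/GPD2 after centring and at RPR1 by fold over local background. By sign alone, 29 sites were lower in Gcr1(U) and higher in Gcr1(S) as deposited, 34 after centring, 30 per bp and 24 by fold over local background. Lower in both were 5, 0, 0 and 1 sites on these scales, and higher in both 0, 3, 6 and 6. Over the 39 sites Spearman's rho between both changes was −0.68, and over all 162 shared peaks −0.84, as a description of points that share libraries.

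**Figure D5:**
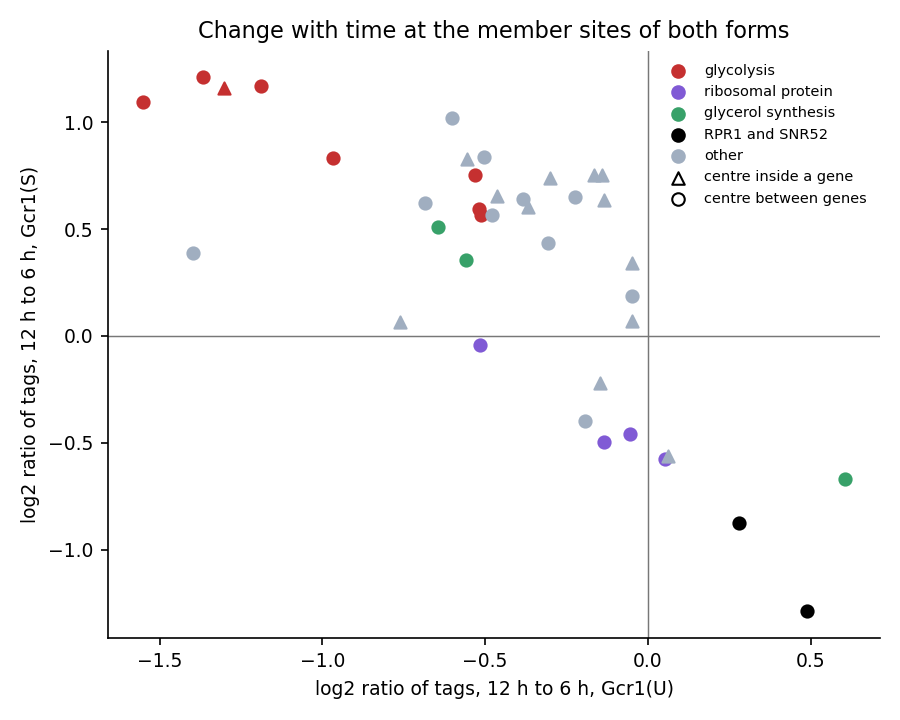
Each point is an interior site found with both forms, with the log2 ratio of tags at 12 h to 6 h in Gcr1(U) on the x axis and in Gcr1(S) on the y axis. Triangles are centres inside a gene, circles between genes, and colours mark gene groups. The glycolytic sites lie at the upper left, and RPR1, SNR52 and the GPD2 promoter at the lower right.

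Several interior sites were at genes transcribed by RNA polymerase III that are not tRNA genes. The peak at RPR1, the RNA of RNase P, in the gap of TIM9 and PXP1, had 482.2 and 585.1 tags in Gcr1(U), and 594.5 and 323.9 in Gcr1(S). The peak at SNR52, a small nucleolar RNA gene in the gap before PMD1, had 356.3 and 500.1, and 595.4 and 244.0. SCR1, which encodes the signal recognition particle RNA, had a peak with Gcr1(U) alone, in the gap before YER137C, of 943.1 and 876.1 tags, the highest site of either form alone at 6 h. SNR6, the U6 spliceosomal RNA gene, had a peak with Gcr1(S) alone that went from 588.0 to 265.5. YLR162W, with a site of Gcr1(U) alone, lies beside the 5S rRNA copy RDN5-6. These sites passed the 500 bp rule because it names tRNA genes only.

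Of the 28 sites of Gcr1(S) alone, 15 lay between genes and 13 inside a gene, and 3 were at genes of the signalling list. BMH1, a 14-3-3 protein gene, had its peak at chrV:545195-545365, 331 bp upstream of the start, with 384.5 tags at 6 h and 1495.9 at 12 h. This ratio of 3.89 (3.45 to 4.38) was the highest of any interior peak in either form. GPR1, the glucose-sensing receptor gene, went from 375.7 to 653.9, and WHI5, the G1 inhibitor of the cell cycle, from 367.8 to 677.1 at a promoter shared with TGL5. With SNF1 these make 4 of 14 genes of the growth and glucose signalling list. All 4 were higher at 12 h, as were 64.2% of the interior members and 27.9% of all peaks of Gcr1(S). TPI1, the triose phosphate isomerase gene, went from 491.6 to 906.5, SOD2 from 443.6 to 659.0 and BST1, a gene of GPI anchor remodelling, from 472.0 to 761.3. PDC1, the main pyruvate decarboxylase of fermentation, had 486.0 and 538.7, a ratio whose interval of 0.959 to 1.28 spanned 1.

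Other sites of Gcr1(S) alone lay in convergent gaps or inside genes. Peaks in convergent gaps lay between TAF14 and TBF1, with 468.8 and 750.1 tags, between ERG29 and GID8, with 385.5 and 754.4, and between HIP1 and TDH3, with 383.1 and 178.7. The gene bodies included SFL1, a repressor of flocculation genes, with 455.3 and 585.1 tags. SPT6, a transcription elongation factor, had 331.0 and 435.6, LEU3, a regulator of leucine synthesis genes, 318.4 and 444.2, and SET3, of a histone deacetylase complex, 307.7 and 373.8. SUB1, a transcriptional coactivator gene, went down from 350.1 to 240.6, a ratio of 0.687 (0.562 to 0.837) that turned above 1 after centring, per bp and by fold over local background, where 7 of the 13 gene-body sites went up.

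The gene-body sites of Gcr1(U) alone were low, and 20 of the 28 were in genes entered by hand as having close copies. That is 71.4%, beside 3 of the 13 shared sites inside a gene and none of the 13 of Gcr1(S) alone. This list of genes was drawn up after the values were seen and without a measure of sequence identity. Its share over all genes was not counted, so these shares are no result about the classes. The 20 had 69.9 to 216.8 tags at 6 h with a median of 109.9. They include 7 sites in the Hsp70 genes SSA1, SSA2, SSB1 and SSB2, where SSA2 held 3 and SSB1 2. They also include reading frames of Ty retrotransposons such as YBR012W-B, with 98.2 and 98.1 tags and a fold over local background of 18.8 and 13.6. The sources used here do not give the treatment of reads that match several places, and its part in these values was not tested. FLO11, a cell-surface flocculin gene, and NUM1, a cortical anchor of dynein, also held such sites, with 72.9 and 81.8 tags, and 104.2 and 84.6.

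Repeated DNA also marked the site with the highest fold over local background of the interior. It lay beside YHR054C, in the CUP1 repeat of chromosome VIII, at chrVIII:214161-214343 and 3 bp before the start. Its fold was 84.7 and 139 in Gcr1(U), and 221 and 217 in Gcr1(S), while its tags were moderate, 278.1 and 268.8, and 295.6 and 336.0. At the other interior sites the fold was at most 18.8 in Gcr1(U) at 6 h, at YBR012W-B, and 45.3 in Gcr1(S) at 6 h, at EFM4.

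The 30 kb limit fell among peaks of ordinary tag counts, and the number of Gcr1(U) members depended on it. With an end margin of 10 kb, 114 peaks of Gcr1(U) in place of 77 were kept at either time. For Gcr1(S) 73 in place of 67 were kept. The member nearest a chromosome end was DAN4, a cell wall gene, 30.9 kb from it with 191.2 tags in Gcr1(U) at 6 h, and the nearest peak left out was in HPF1 at 29.0 kb. For Gcr1(S) these were BMH1 at 31.6 kb and the KAR4/RDT1 gap at 29.3 kb. The member nearest a tRNA gene was SSA1 at 818 bp in Gcr1(U) at 6 h and GPD1 at 915 bp in Gcr1(S) at 6 h. In Gcr1(U) at 12 h it was YNL018C at 746 bp. The nearest peaks left out overlapped a tRNA gene. A margin of 1000 bp left 73 and 72 members of Gcr1(U) at 6 h and 12 h, and 66 of Gcr1(S) at either time.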

How the data were processed

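The members and gene lists were chosen with earlier results of these data known. Per the submitters' processing notes, the build was sacCer3 and the tools were HOMER, bedtools, Picard 2.92, BWA 0.7.15, FastQC 0.10.1 and bcl2fastq 1.8.2, with no roles given. Per the labels' protocols, cells were fixed with 1% formaldehyde for 25 min and libraries had 15 PCR cycles and 50 read cycles. The authors' signal is the normalized tag count of each peak, per the file headers. The deposited score ranked peaks in 1 alternative. The deposited fold over local background is a ratio and was used as an alternative scale. The authors' p-value against local background and their focus ratio, a fraction, were described only; their clonal fold was not used.

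Values fell on an even grid (100% within 0.05 units in each list, where 11.6 to 30.0% would by chance), whose step was taken as 0.5 tags. The reads have no molecular identifiers, so PCR copies are not independent and intervals cover counting error only. Lists were matched by overlap of at least 1 bp. A site is named by the gene that holds its centre, or else by genes whose start lies within 1000 bp downstream; strand was read from systematic names. Named members are the 12 highest per form and location, the 5 highest and 5 lowest ratios per comparison, the 6 highest sites of each form alone, members of the lists and those nearest a threshold; others were named after their values were seen. Chromosome lengths of sacCer3 were entered by hand; with the last annotated gene as the end, 1 member of Gcr1(U), DAN4, would be lost. No genome sequence was used, so motifs were not searched and the annotation gives gene extents without exons or UTRs. Interval and step calculations were tested on simulated data. Python 3.11.15 with pandas 2.3.3 and scipy 1.17.1 was used.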

Additional observations from a re-analysis of the deposited data

Results flagged for a closer look

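The change from 6 h to 12 h had opposite directions in the forms at 22 of the 39 shared interior sites, where Gcr1(U) was lower and Gcr1(S) higher with both counting intervals clear of 1. At 3 of them Gcr1(U) was higher and Gcr1(S) lower. These drew attention because 2 forms under the same contrast moved apart. Of all 162 shared peaks, 41 had the former pattern and 73 the latter, so opposite changes were not particular to the interior sites. The difference was not tested, since each form has 1 pooled list per time.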

How the results depend on the processing

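No paired analysis was possible because each list pools the replicates, and for the same reason no replicate could be left out. Keeping the upper 50% of peaks by score left 40 and 39 members in Gcr1(U) at 6 h and 12 h and 33 in Gcr1(S) at 6 h, and took the median log2 change of Gcr1(U) from −0.14 to −0.38. Requiring the whole interval inside a gene left 16 such members in Gcr1(S) at 6 h. Centring on the median of all peaks moved the median log2 ratio of Gcr1(S) to Gcr1(U) at 6 h from 0.01 to −0.35, at 12 h from 0.95 to 1.55, and the change of Gcr1(S) with time from 0.48 to 1.23. Per bp of window, the last 2 became 1.51 and 1.06. By fold over local background the 12 h median was 0.66, and the change of Gcr1(U) reversed to 0.019. Counts past 2-fold moved most. For Gcr1(S) to Gcr1(U) at 6 h, higher members numbered 2 at 1.5-fold and 13 by interval; lower ones 7 at 1.5-fold, 4 centred, 1 per bp and 13 by interval. At 12 h, higher ones numbered 26 centred, 26 per bp and 27 by interval; lower ones 5 at 1.5-fold, 0 centred, 0 per bp and 7 by interval. For Gcr1(U) over time, higher ones numbered 4 at 1.5-fold, 2 per bp and 10 by interval; lower ones 11 at 1.5-fold and 28 by interval. For Gcr1(S) over time, higher ones numbered 28 at 1.5-fold, 43 centred, 35 per bp and 43 by interval; lower ones 6 at 1.5-fold, 0 centred, 0 per bp and 12 by interval. The cause of these moves was not tested. Of the values of single sites under the alternatives, 407 moved past their interval and 259 did not. None of the 34 ratios past 2-fold changed sign, but of the 153 with an interval clear of 1, 16 did after centring, 7 per bp and 19 by fold over local background. Motif searches were not run. Depth limits single ratios to a median half-width of 0.16 to 0.21 (log2).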

Other observations

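Interior sites of Gcr1(U) alone at the flocculin gene FLO5 numbered 1 inside the gene, with 106.2 and 85.7 tags at 6 h and 12 h, and 1 beyond its end, with 91.6 and 72.7. Another site in FLO5 was shared, with 176.8 and 171.1 tags in Gcr1(U), and 161.1 and 169.3 in Gcr1(S).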
